A study of Mus musculus with 4 samples.

Results

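Iron handling genes were followed through the bone marrow of mice with myeloma, as 10 genes chosen by their symbols out of 32285 measured: Hmox1, Slc40a1, Fth1, Ftl1, Tfrc, Slc11a1, Slc11a2, Cd163, Blvrb and Spic. All 10 were in the files and had UMIs (unique molecular identifiers, each counting 1 captured transcript). The marrow came from the 5TMM model, in which 5TGM1-luc myeloma cells had been injected into the vein of 6-week-old C57BL/KawRij mice, and all 4 mice therefore carried the tumor cells. After 3 weeks, 2 mice received vehicle and 2 received PM (purinostat mesylate, an inhibitor of class I and IIb histone deacetylases) at 10 mg/kg, and total marrow was taken at 24 h. Erythrocytes were lysed before loading on the 10x Chromium 3' assay, so the erythroid cells in these data are those that survived lysis. The question was which cells carried the iron genes and whether their levels differed between PM and vehicle.

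Marrow is where most of the body's iron is used and much of it is recovered. Erythroblasts take up transferrin iron through Tfrc (transferrin receptor 1), and Slc11a2 (DMT1) carries it out of the endosome. Macrophages engulf old red cells, scavenge hemoglobin with Cd163, open heme with Hmox1 (heme oxygenase 1) and release the iron through Slc40a1 (ferroportin, the known cellular iron exporter). Blvrb (biliverdin reductase B) is abundant in red cells. Fth1 and Ftl1 form the ferritin shell that stores iron, and Slc11a1 (NRAMP1) moves metal out of the phagosome. Spic is a transcription factor of iron-recycling macrophages. Levels of these mRNAs are not levels of the proteins, because several of them carry an iron-responsive element (IRE), a short hairpin bound by iron regulatory proteins that blocks translation from the 5' UTR and protects the mRNA from the 3' UTR.

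The IREs are shown because of where they act. Among the members with a match below, that is the mRNA level for Tfrc and mainly translation for Fth1, Ftl1 and Slc40a1. A pattern was searched on the sense strand of the UTRs of the GENCODE vM21 transcripts (GRCm38): the loop CAGTGN with its last base not G, a stem of 5 base pairs (G-T pairs allowed) and a C placed 6 bases before the loop. It was found in the 5' UTR of 22 of 21200 genes (0.104%) and in the 3' UTR of 109 of 21193 genes (0.514%). Of the members, 4 held it. The 30 bases around each loop are printed 5' to 3' on the strand of the gene, with the loop in capitals.
Fth1, 5' UTR, exon 1 or 2 by transcript, chr19:9982732-9982761, + strand: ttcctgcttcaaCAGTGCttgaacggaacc
Ftl1, 5' UTR, exon 1, chr7:45459778-45459807, - strand: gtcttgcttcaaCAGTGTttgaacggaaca
Slc40a1, 5' UTR, exon 1, chr1:45925464-45925493, - strand: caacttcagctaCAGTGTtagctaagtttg
Tfrc, 3' UTR, exon 19, chr16:32631219-32631248, + strand: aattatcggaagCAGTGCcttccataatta
Tfrc, 3' UTR, exon 19, chr16:32631598-32631627, + strand: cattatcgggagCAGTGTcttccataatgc
Tfrc, 3' UTR, exon 19, chr16:32631663-32631692, + strand: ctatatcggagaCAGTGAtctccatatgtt
Tfrc, 3' UTR, exon 19, chr16:32631710-32631739, + strand: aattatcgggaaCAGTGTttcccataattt
Tfrc held 4 such elements in 1 exon and the other 3 genes held 1 each. A pattern match is a description of letters and not a measured site. The pattern is strict, and elements of another form, in Slc11a2 or other members, would be missed. On the same build, Tfrc spans chr16:32608920-32632794 and Slc40a1 chr1:45908068-45926523. Hmox1 (chr8:75093621-75100589) and Blvrb (chr7:27447978-27466144), to which the results return most often, held no such pattern in their UTRs.

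The 4 libraries held 69828595 to 109447030 UMIs, and 39743 barcodes passed the filters (7826 to 13387 per mouse). Clusters were named from marker genes that include no member, and each name stands for cells that resemble that type: macrophages, mono&prog (monocytes and their progenitors), neutrophils, erythroid&prog, HSPC (stem and progenitor cells), B, T, plasma, DC (dendritic cells), eosinophil/basophil prog, megakaryocyte, CAR (Cxcl12-abundant reticular stromal cells) and endothelial. Libraries shared 18 to 41 barcodes per pair, at most 0.431% of the first library of the pair. The macrophages were few and shallow. They numbered 68 and 160 cells with vehicle and 146 and 169 with PM, with a median of 889 UMIs per cell against 4229.5 to 5676 in neutrophils. Of the 11 macrophage markers, 10 were found in at least 10% of these cells. Neutrophil markers made up 132 and 189 of every 1000 macrophage UMIs with vehicle and 228 and 180 with PM, so RNA of neutrophils was present in the macrophage sums, and its part in the values below was not tested. The macrophage markers themselves stood at 9.07 to 11.7 per 1000. Fth1 and Ftl1 have near-identical copies in the mouse genome, and their counts are uncertain to the extent that reads were shared with those. In summed data, fewer transcripts per cell and fewer cells of one kind within a type cannot be told apart.

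Levels were taken as CPM, the UMIs of the gene per 1000000 summed UMIs of the cell type in that mouse. Spic and Cd163 were highest in macrophages by a wide margin. Spic measured 273 and 299 CPM in macrophages of the vehicle mice and 393 and 388 CPM in those of the PM mice, and the next type, an unnamed cluster led by C1qa and Ace, averaged 29.2 CPM ± 20.6 (SD, n = 4). Macrophages were 1.37% of all cells and held 66.5% of all Spic UMIs. A Spic UMI was seen in 35.7% of macrophages (95% exact binomial interval 31.7 to 39.9%, counting error only) and in 0.245% of neutrophils, which are deeper. Cd163 averaged 94.0 CPM ± 40.5 (SD, n = 4) in macrophages and 9.16 CPM ± 3.27 (SD, n = 4) in DC, and the ranges of the 2 types did not overlap. Its UMIs were few, 424 in all, of which macrophages held 26.9%.

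**Figure D1:**
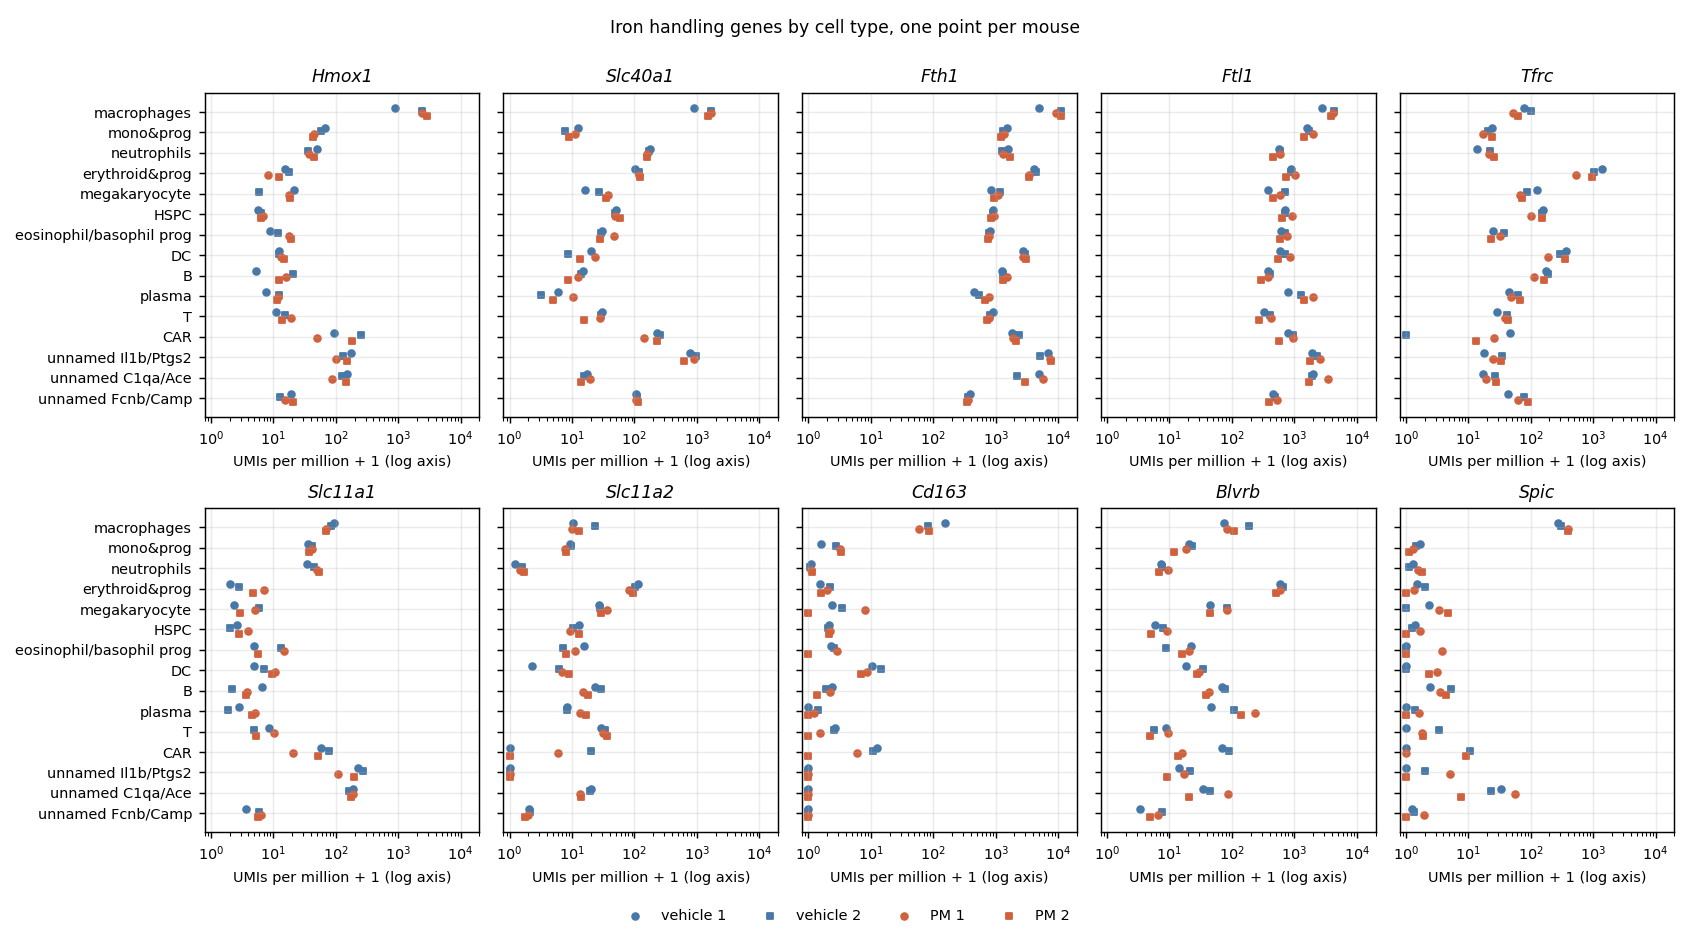
CPM plus 1 (log axis) of each of the 10 genes in 15 cell types and clusters, 1 point per mouse, blue for vehicle and red for PM. Hmox1, Cd163 and Spic are highest in macrophages, Tfrc, Slc11a2 and Blvrb in erythroid&prog, and Slc40a1 in macrophages and the unnamed Il1b and Ptgs2 cluster.

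Hmox1 was highest in macrophages as well, with 901 and 2370 CPM with vehicle and 2384 and 2947 CPM with PM. A Hmox1 UMI was seen in 77.9% of macrophages (74.2 to 81.3%) and in 6.56% of erythroid&prog, and after thinning to 1500 UMIs per cell in 38.1 to 62.5% and 1.37 to 2.59% over the mice (21 to 59 macrophages per mouse were deep enough). The next type, endothelial, did not overlap this range, and its 9 to 20 cells per mouse held as many macrophage markers (1.39 to 5.89 per 1000 UMIs) as endothelial ones (1.08 to 4.89) or more in each mouse. The following places from endothelial on (then CAR, the Il1b and Ptgs2 cluster and the C1qa and Ace cluster, with means of 203 to 127 CPM) had overlapping ranges. Macrophages held 22.2% of all Hmox1 UMIs, mono&prog 20.4% and neutrophils 42.3%. Most captured Hmox1 UMIs thus lay outside the macrophages, although macrophages had the highest CPM. Such shares of UMIs also depend on how many cells of each type were captured and on their depth, which was low in macrophages.

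Slc40a1 was not a gene of macrophages alone. Its level in macrophages was 882 and 1705 CPM with vehicle and 1664 and 1529 CPM with PM. An unnamed cluster of 982 cells led by Il1b and Ptgs2 followed with 775, 975, 906 and 627 CPM in the same order of mice, and its range overlapped that of macrophages. Neutrophils came to 165 CPM ± 11.1 (SD, n = 4), CAR cells to 215 CPM ± 48.4 (SD, n = 4) and erythroid&prog to 114 CPM ± 8.99 (SD, n = 4), with CAR and neutrophils overlapping and erythroid&prog below both. Mono&prog were low at 6.82 to 11.4 CPM. By number of transcripts, neutrophils held 64.4% of all Slc40a1 UMIs and macrophages 5.69%. The share of neutrophils with a Slc40a1 UMI was 54.4% (53.7 to 55.1%), and 20.7 to 26.2% after every cell was thinned to 1500 UMIs.

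Within the neutrophils the Slc40a1 level differed between clusters. Cluster 6, whose leading genes included Chil3 and Fcnb, held 107 to 113 CPM over the 4 mice, and cluster 1, with Ltf and Ngp, held 130 to 145 CPM. The clusters led by Mmp8 and Thbs1 (cluster 2) and by Retnlg and Mmp8 (cluster 3) ranged from 157 to 202 CPM and from 165 to 214 CPM. Cluster 0, led by Cstdc4, Stfa2l1 and Il1b, had 391 and 372 CPM with vehicle and 237 and 205 CPM with PM. Hmox1 and Slc11a1 were likewise low in cluster 6 and higher in clusters 3, 4 and 0. Since the clusters were made from the same cells, these differences are a description.

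**Figure D2:**
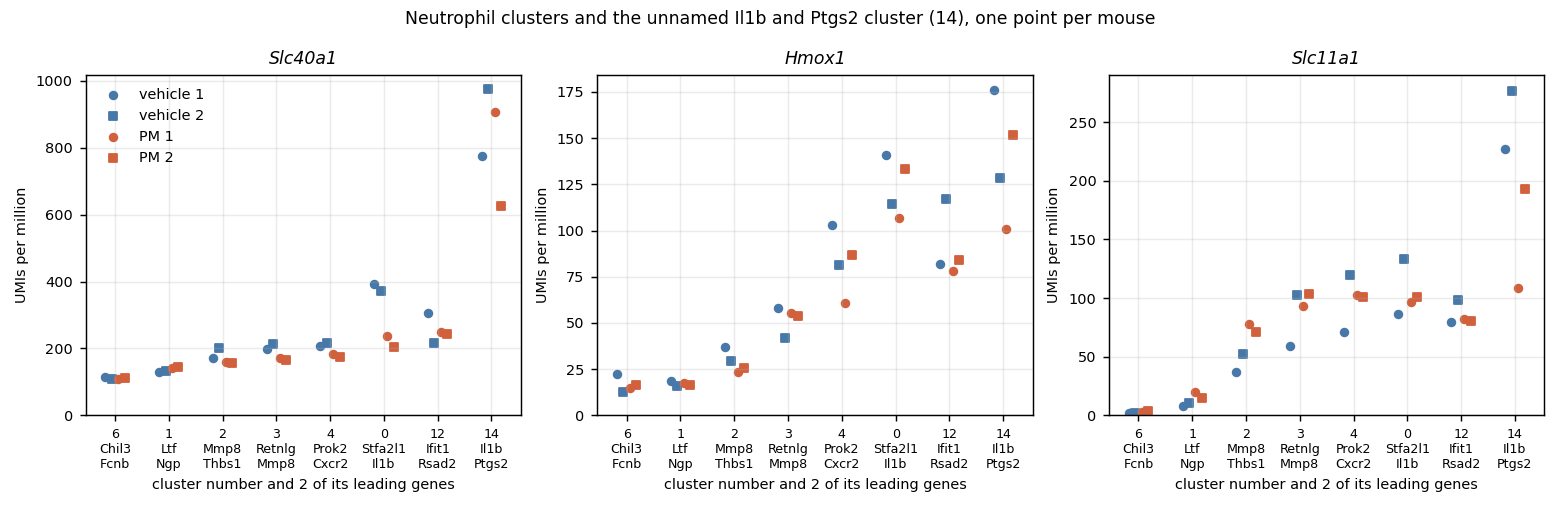
CPM of Slc40a1, Hmox1 and Slc11a1 in the 7 neutrophil clusters and in the unnamed Il1b and Ptgs2 cluster (14), 1 point per mouse, with 2 leading genes under each cluster number. All 3 genes are low in clusters 6 and 1, and Slc40a1 reaches 627 to 975 CPM in cluster 14.

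The ferritin genes were found everywhere. Fth1 was highest in macrophages (4980 and 11258 CPM in the vehicle mice, 9219 and 11328 CPM in the PM mice), followed by the Il1b and Ptgs2 cluster (5220 to 7598 CPM), the C1qa and Ace cluster (2183 to 5759 CPM) and erythroid&prog (3375 to 4441 CPM), each overlapping the one before it. Ftl1 had the same leading type, at 2813 and 4343 CPM with vehicle and 4148 and 3849 CPM with PM. Its order then differed from that of Fth1, with mono&prog at 1444 to 1951 CPM above erythroid&prog at 746 to 1025 CPM. In the plasma cluster led by Mt2 and Rhox5 (171 cells), Ftl1 measured 1191 and 1748 CPM with vehicle and 2495 and 2127 CPM with PM, and these groups did not overlap (log2 fold change 0.62, SE 0.24, adjusted p = 0.374, not called).

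Tfrc, Slc11a2 and Blvrb were the erythroid members. Tfrc measured 1392 and 1014 CPM in erythroid&prog of the vehicle mice and 538 and 943 CPM in those of the PM mice, and DC came next with 303 CPM ± 84.0 (SD, n = 4). Slc11a2 stood at 115, 101, 81.1 and 94.9 CPM in the same order, against 28.2 to 36.0 CPM in T cells. Blvrb stood at 579, 650, 588 and 506 CPM. For each of the 3 genes, erythroid&prog did not overlap the type below. These cells were 2.88% of all cells and held 44.9% of the Tfrc UMIs, 45.4% of the Slc11a2 UMIs and 65.2% of the Blvrb UMIs. No Slc11a2 UMI was seen in the 982 cells of the Il1b and Ptgs2 cluster, which allows up to 0.305% of cells with a UMI.

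Slc11a1 was highest in 2 unnamed clusters. It measured 227 and 277 CPM in the Il1b and Ptgs2 cluster of the vehicle mice and 109 and 193 CPM in that of the PM mice. The C1qa and Ace cluster followed at 161 to 191 CPM, and the ranges of these 2 clusters overlapped. Macrophages (68.0 to 92.4 CPM), neutrophils (33.2 to 53.8 CPM) and mono&prog (35.4 to 40.5 CPM) were lower, and neutrophils held 64.3% of its UMIs. Endothelial (54.2 CPM ± 41.1, SD, n = 4) and CAR cells (51.5 CPM ± 24.1, SD, n = 4) lay between macrophages and neutrophils in mean level.

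**Figure D3:**
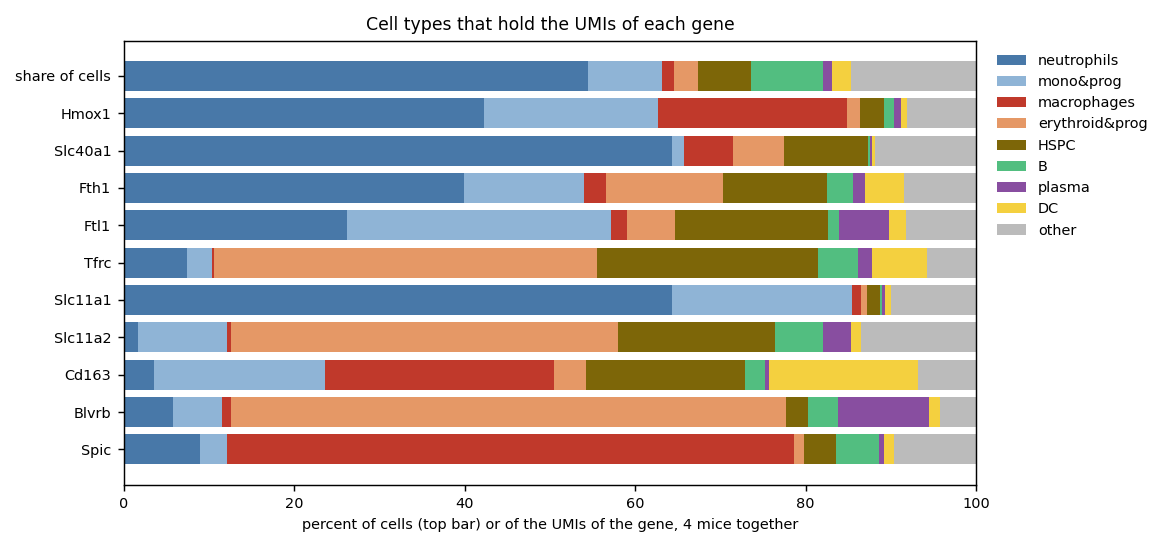
Percent of all cells (top bar) and of the UMIs of each gene, over the 4 mice together, by cell type. Neutrophils hold 64.4% of Slc40a1 and 64.3% of Slc11a1 UMIs, erythroid&prog 65.2% of Blvrb, and macrophages, with 1.37% of cells, 66.5% of Spic.

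The effect of PM was tested on UMIs summed per mouse and cell type with edgeR's quasi-likelihood test, with Benjamini-Hochberg adjustment over all genes tested in that type, and a gene was called at an adjusted p under 0.05 with a log2 fold change over 0.5 in size. The p-values rest on the spread between 2 mice a group, which edgeR draws toward the spread of the other genes in the fit. An exact permutation test on the same mice could not give less than 0.333. In the 12 named types with enough cells, 95 of 120 pairs of a member and a type had enough counts for a test, and 2 of these were called (2.11%): Hmox1 in mono&prog and Blvrb in B cells, both lower with PM. Over all genes in these types, 1719 of 111903 pairs were called (1.54%), a share near that of the members. With DESeq2, 1 of the members was called, Hmox1 in mono&prog. Groups that do not overlap are what gives the p of 0.333. The edgeR fold changes were fitted after scaling between mice (TMM), which the CPM do not include, so the 2 can differ in size.

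**Figure D4:**
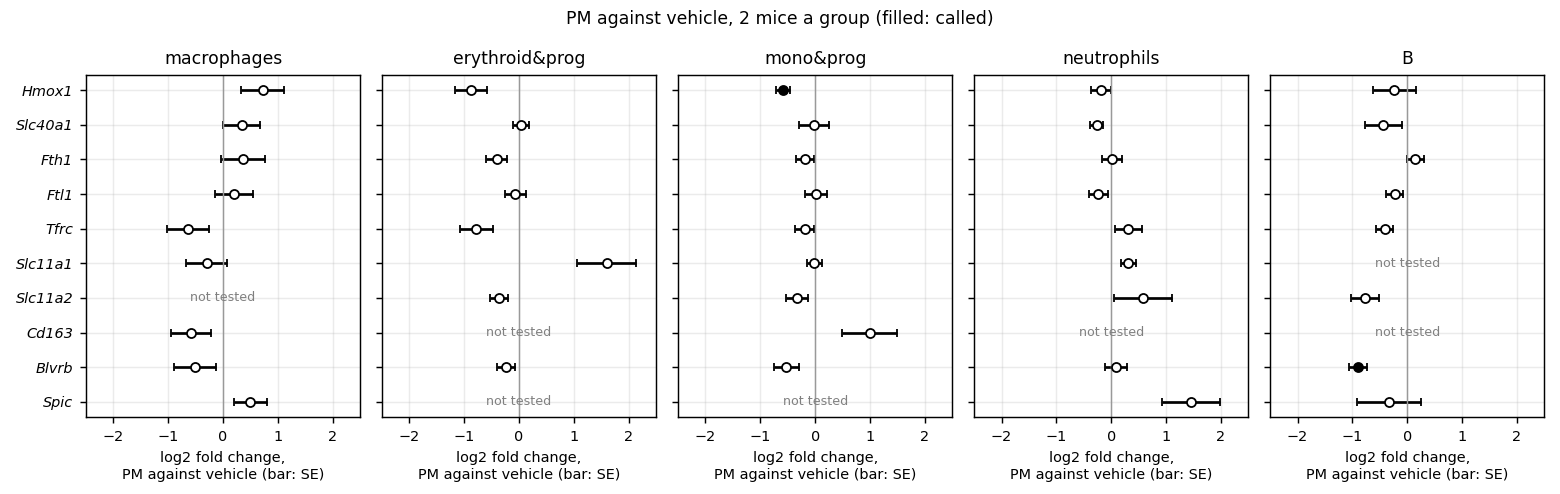
Log2 fold change of PM against vehicle (bars are standard errors) for the 10 genes in 5 cell types, with called genes filled. Hmox1 in mono&prog and Blvrb in B are filled, and the bars of macrophages are 0.29 to 0.40 long on each side.

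In mono&prog, Hmox1 fell by 0.58 on the log2 scale (SE 0.12, adjusted p = 0.0479 by edgeR), from 67.6 and 58.0 CPM in the vehicle mice to 43.3 and 42.2 CPM in the PM mice. The groups did not overlap. Of all genes tested in mono&prog 1.66% were called. Hmox1 was lower in both clusters of the type, with 96.7 and 93.4 against 69.9 and 72.8 CPM in the cluster led by Vcan and Clec4a3 and 45.2 and 35.4 against 28.02 and 23.6 CPM in the cluster led by Klf4 and Fn1. Neither cluster by itself gave a call (log2 fold change -0.43 with adjusted p = 0.0939, and -0.66 with adjusted p = 0.0969, by edgeR), where 2.92% and 1.12% of genes were called. The cluster with the lower level made up 33.6 and 37.1% of mono&prog with vehicle and 41.3 and 40.8% with PM, and the part of this in the fall was not tested. Leaving out vehicle replicate 1 removed the call (log2 fold change -0.47, adjusted p = 0.161 by edgeR), as did leaving out PM replicate 1 (-0.65, adjusted p = 0.252) or PM replicate 2 (-0.52, adjusted p = 0.221). The other 8 tested members gave no call there. Blvrb measured 19.6 and 21.6 CPM against 17.3 and 10.9 CPM (log2 fold change -0.53, adjusted p = 0.344 by edgeR), and Slc11a2 8.23 and 8.57 against 6.61 and 7.06 CPM (-0.33, adjusted p = 0.509 by edgeR). Cd163 stood at 0.602 and 1.75 against 2.22 and 2.40 CPM (1.00, adjusted p = 0.403 by edgeR), and was called higher without vehicle replicate 2 (1.88, adjusted p = 0.0386). Blvrb was called lower without the filter on low counts (-0.53, adjusted p = 0.0288 by edgeR). In that setting 704 of 17261 genes were called in mono&prog, against 195 of 11723 with the filter.

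In B cells, Blvrb fell by 0.90 on the log2 scale (SE 0.17, adjusted p = 0.00395 by edgeR), from 68.7 and 76.3 CPM in the vehicle mice to 41.2 and 37.7 CPM in the PM mice, where 5.77% of all genes were called. The B clusters carried Blvrb at different levels. In cluster 10, led by Ms4a1 and Vpreb3, it measured 110 and 121 against 76.4 and 65.5 CPM (log2 fold change -0.70, adjusted p = 0.0257 by edgeR), and in cluster 22, led by Vpreb1 and Igll1, 36.6 and 49.8 against 20.2 and 12.9 CPM (-1.42, adjusted p = 0.0361 by edgeR). In cluster 7, led by Ighd and Fcer2a, it measured 55.9 and 26.2 against 34.8 and 35.5 CPM, and the groups overlapped. These clusters had 8.75, 2.16 and 2.09% of genes called. Cluster 7 made up 49.4 and 28.01% of B cells with vehicle and 65.4 and 56.7% with PM, so the makeup of the B cells differed too. Globin transcripts in B cells were 0.107 and 1.09 per 1000 UMIs with vehicle and 0.177 and 2.34 with PM. The part of red cell RNA was not tested in B cells either. Slc11a2 measured 22.4 and 27.8 against 13.8 and 17.3 CPM (-0.78, adjusted p = 0.0859 by edgeR) and was not called, except without vehicle replicate 1 (-0.86, adjusted p = 0.0264). Tfrc measured 174 and 189 against 114 and 162 CPM (-0.42, adjusted p = 0.152 by edgeR) and was called only without PM replicate 2 (-0.65, adjusted p = 0.0356). Leaving out vehicle replicate 2 removed the Blvrb call (log2 fold change -0.79, adjusted p = 0.0972 by edgeR), as did DESeq2 (-0.89, adjusted p = 0.103).

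**Figure D5:**
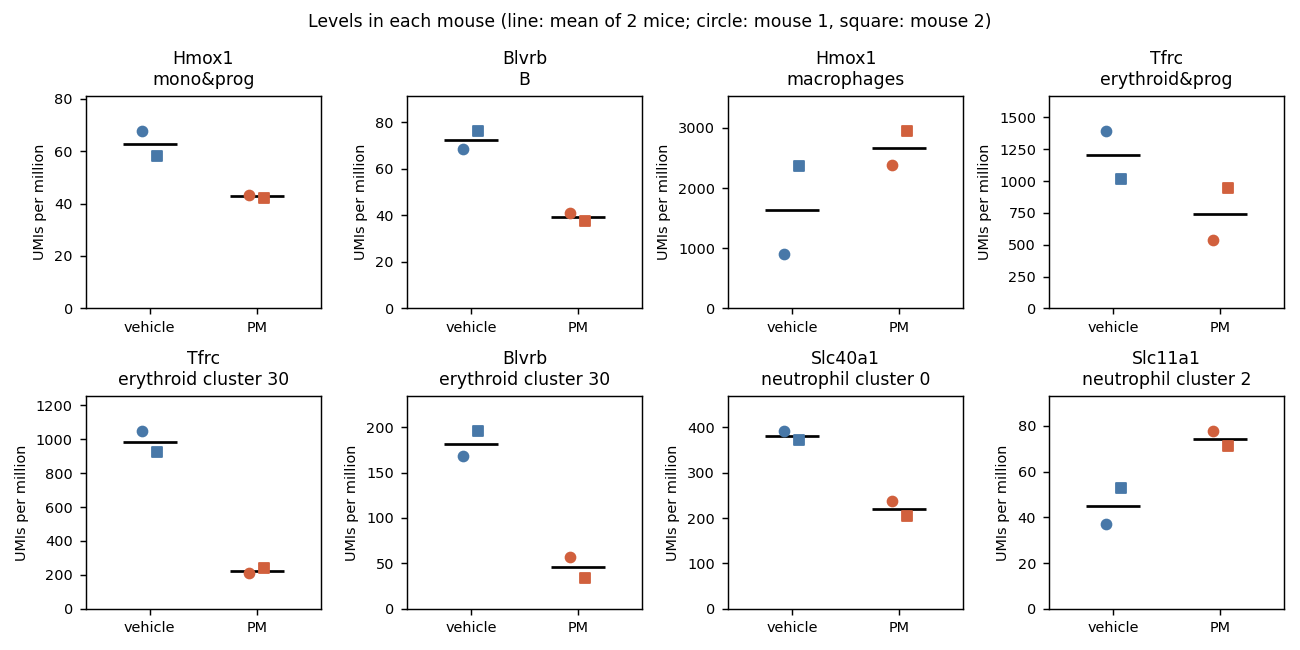
CPM in each mouse (circles for replicate 1, squares for replicate 2) with the mean of each group as a line, for Hmox1, Blvrb, Tfrc, Slc40a1 and Slc11a1 in the cell types and clusters named above each panel. The panels were chosen from these same results, so the separation of the groups in them adds no support. The PM mice lie above the vehicle mice for Hmox1 in macrophages and Slc11a1 in cluster 2, and below them in the other panels.

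In macrophages no member was called by edgeR or DESeq2, none of 9 tested had an unadjusted p under 0.05 (7.82% of all genes did), and 0.371% of all genes were called. The spread between the vehicle mice was wide. Hmox1 had a log2 fold change of 0.72 (SE 0.39, adjusted p = 0.678 by edgeR). Vehicle replicate 1, with 68 macrophages, had the lowest Hmox1, Slc40a1, Fth1 and Ftl1 of the 4 mice, while vehicle replicate 2 lay close to the PM mice or between them, or, for Slc40a1 and Ftl1, above them. Without vehicle replicate 2, Hmox1 (1.76, adjusted p = 1.31e-06 by edgeR), Slc40a1 (1.05, adjusted p = 0.00932) and Fth1 (1.24, adjusted p = 0.00375) were called higher. With all 4 mice, Slc40a1 and Fth1 had log2 fold changes of 0.34 and 0.37, and without vehicle replicate 1 of -0.12 and -0.16. Of the 9 tested, Hmox1, Spic, Tfrc and Slc11a1 had groups that did not overlap but gave no call. For Hmox1 the nearest values were 2370 CPM in vehicle replicate 2 and 2384 CPM in PM replicate 1. Lack of overlap alone has an exact p of 0.333 by permutation test. The share of all genes without overlap is not given, so this adds no support. The log2 fold change was 0.50 for Spic (adjusted p = 0.708 by edgeR), -0.64 for Tfrc (adjusted p = 0.722) and -0.30 for Slc11a1 (adjusted p = 0.904). Tfrc measured 78.5 and 101 against 50.2 and 62.7 CPM. Cd163 measured 152 and 81.0 against 59.1 and 83.6 CPM (-0.58, adjusted p = 0.737 by edgeR), and Blvrb 73.9 and 189 against 82.7 and 107 CPM (-0.51, adjusted p = 0.795, and 0.55 without vehicle replicate 2). Globin transcripts in macrophages were 0.277 and 9.57 per 1000 UMIs with vehicle and 1.15 and 5.23 with PM, and were thus highest and lowest in the 2 vehicle mice, as were Blvrb values. The part of red cell RNA was not tested.

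In erythroid&prog no member was called by edgeR or DESeq2, 3 of 8 tested had an unadjusted p under 0.05 (14.4% of all genes did), and 0.2% of all genes were called. Tfrc had a log2 fold change of -0.78 (SE 0.30, adjusted p = 0.315 by edgeR), with the values given above, which did not overlap. It was called without the filter on low counts (-0.75, adjusted p = 0.00906 by edgeR). In that setting 703 of 15905 genes were called in erythroid&prog, against 21 of 10490 with the filter. Without vehicle replicate 2 the Tfrc log2 fold change was -1.01 and Tfrc was called. It was not called with any other single mouse left out. Fth1 measured 4151 and 4441 CPM with vehicle and 3375 and 3429 CPM with PM (-0.41, SE 0.20, adjusted p = 0.371 by edgeR), and Slc11a2 had a log2 fold change of -0.36 (SE 0.16, adjusted p = 0.353). Hmox1 was low, at 14.5 and 17.0 against 7.19 and 11.2 CPM (-0.88, adjusted p = 0.256 by edgeR). Slc11a1 was lower still, at 1.04 and 1.80 against 6.19 and 3.67 CPM (1.59, adjusted p = 0.249 by edgeR), and neutrophil markers in the same sums were 26.9 and 9.79 per 1000 UMIs against 34.5 and 29.6.

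The erythroid cells formed 2 clusters, and the measured difference in Tfrc was larger in the smaller one. Whether the PM effect differed between the 2 clusters was not tested. Cluster 30, led by Hba-a2 and Hbb-bs, held 24 and 28 cells with vehicle and 53 and 61 with PM. Its Tfrc level was 1046 and 923 CPM (131 and 104 UMIs) with vehicle and 212 and 239 CPM (59 and 84 UMIs) with PM, a log2 fold change of -2.23 (SE 0.25, adjusted p = 7.6e-05 by edgeR). Blvrb in the same cells was 168 and 195 against 57.4 and 34.1 CPM, from only 12 to 22 UMIs per mouse (-2.10, SE 0.41, adjusted p = 0.00293 by edgeR). In this cluster 15.5% of 2352 tested genes were called. Globin transcripts were 291 and 326 per 1000 UMIs with vehicle and 184 and 168 with PM, and neutrophil markers 161 and 129 against 291 and 263, so that a larger share of the UMIs in the PM mice came from neutrophil genes. The part of this mixture in the 2 calls was not tested. Hmox1 and Slc40a1 were highest there in vehicle replicate 2 (613 and 382 CPM), the mouse that also had the most macrophage markers in the cluster, at 0.941 per 1000 UMIs against 0.128 to 0.335 in the other mice. In cluster 15, led by Car1 and Car2, Tfrc measured 1416 and 1016 against 554 and 997 CPM and was not called, and 0.117% of genes were called. These fits within clusters were added after the data had been seen, and in the 16 clusters fitted 6 of 105 tests of a member gave a call (5.71%), against 4477 of 130932 tests over all genes (3.42%).

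In neutrophils, where 6.4% of all genes were called, no member was called by edgeR or DESeq2, and 2 of 9 tested had an unadjusted p under 0.05, as did 24.3% of all genes. Slc40a1 measured 176 and 173 CPM with vehicle and 156 and 155 CPM with PM (log2 fold change -0.26, SE 0.12, adjusted p = 0.214 by edgeR). Slc11a1 measured 33.2 and 44.0 against 48.6 and 53.8 CPM (0.31, SE 0.13, adjusted p = 0.194 by edgeR). Tfrc (0.31, adjusted p = 0.473 by edgeR) overlapped between the groups, and was called higher only without vehicle replicate 2 (0.70, adjusted p = 0.0266). Slc11a2 (0.58) and Spic (1.46, adjusted p = 0.129 by edgeR) were below 1 CPM in every mouse. The makeup of the neutrophils differed between the groups: cluster 4 made up 20.1 and 14.7% of them with vehicle and 2.66 and 5.55% with PM, cluster 2 16.5 and 15.6% against 22.5 and 22.7%, and cluster 12 3.28 and 1.83% against 7.61 and 6.07%. Its part in the values of Slc40a1 and Slc11a1 was not tested. Within clusters, Slc40a1 fell in cluster 0 by 0.73 on the log2 scale (SE 0.16, adjusted p = 0.0286 by edgeR), with the 4 values given above. Slc11a1 rose in cluster 2 by 0.66 (SE 0.17, adjusted p = 0.0422 by edgeR), from 37.2 and 52.7 CPM to 77.6 and 71.2 CPM. The share of genes called was 6.46% in cluster 0 and 6.73% in cluster 2, and 5.12, 4.02, 3.63, 2.41 and 1.65% in clusters 1, 3, 4, 6 and 12, where no member was called.

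None of the remaining types gave a call of a member by edgeR or DESeq2, against shares of all genes called of 0.266% in HSPC, 0.231% in T, 0.063% in plasma, 0.36% in DC, 0.16% in eosinophil/basophil prog, 0.037% in CAR and 0% in megakaryocyte cells. The unadjusted p was under 0.05 for 1 member each in HSPC, megakaryocyte and CAR cells and in the unnamed cluster led by Il1b and Ptgs2. Tfrc measured 156 and 153 against 101 and 150 CPM in HSPC (log2 fold change -0.33, adjusted p = 0.416 by edgeR), where it was called without PM replicate 2 (-0.58, adjusted p = 0.0438). In megakaryocyte cells it measured 125 and 86.3 against 65.7 and 73.0 CPM (-0.62, adjusted p = 0.953 by edgeR) and was called without vehicle replicate 2 (-0.83, adjusted p = 0.0331). Blvrb in CAR cells measured 69.6 and 87.6 against 14.9 and 12.5 CPM, from only 6 and 9 against 3 and 3 UMIs (-2.42, adjusted p = 0.576 by edgeR). Slc11a1 in the Il1b and Ptgs2 cluster had a log2 fold change of -0.62 (adjusted p = 0.239 by edgeR). All 4 sets of values had groups that did not overlap. They were chosen by an unadjusted p under 0.05, so the lack of overlap adds no support. At the same threshold stood 11.6, 4.65, 6.66 and 18.2% of all genes in HSPC, megakaryocyte cells, CAR cells and the Il1b and Ptgs2 cluster. In DC, Tfrc overlapped between the groups and was called only without PM replicate 2 (log2 fold change -0.80). The unnamed clusters led by Il1b and Ptgs2, C1qa and Ace, and Fcnb and Camp had 1.28, 0 and 1.23% of genes called and no called member. In plasma cells the Blvrb values were 46.1 and 109 CPM with vehicle and 231 and 136 CPM with PM (log2 fold change 1.00, SE 0.44, adjusted p = 0.78 by edgeR, and called without the filter on low counts or without vehicle replicate 2, at 1.72 and adjusted p = 0.0484). They came from the cluster led by Mt2 and Rhox5, where Blvrb measured 110 and 198 against 323 and 253 CPM (0.85, SE 0.26, adjusted p = 0.247 by edgeR). In that cluster 0.643% of genes were called, while the cluster led by Igha (0.126% called) held 3.77 to 9.60 CPM. The Mt2 and Rhox5 cluster made up 33.3 and 26.5% of plasma cells with vehicle and 48.7 and 32.6% with PM. The part of this in the plasma values was not tested.

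Over all cells summed, Slc40a1 measured 113 and 115 CPM with vehicle and 87.5 and 99.8 CPM with PM (log2 fold change -0.41, SE 0.12, adjusted p = 0.328 by edgeR), and Hmox1 43.3 and 44.1 against 31.98 and 41.7 CPM (-0.38, SE 0.13, adjusted p = 0.369). No member was called by edgeR or DESeq2, 2 of 10 had an unadjusted p under 0.05 (12.8% of all genes did), and 0.0128% of all genes were called. These 2 fold changes include the TMM scaling and are larger in size than the CPM alone would give. The sums over all cells also move with the makeup of the marrow.

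Whether the PM effect differed between types was tested as an interaction with the mouse as a block. Between neutrophils and mono&prog, the effect on Blvrb differed by 0.66 on the log2 scale (SE 0.18, adjusted p = 0.0454 by edgeR), with 0.08 in neutrophils and -0.53 in mono&prog, neither of them called, and 4.68% of all genes were called. This call too was gone when vehicle replicate 2 (0.57, adjusted p = 0.0626 by edgeR), PM replicate 1 (0.73, adjusted p = 0.241) or PM replicate 2 (0.61, adjusted p = 0.181) was left out. The difference for Hmox1 was 0.41 (adjusted p = 0.152 by edgeR) and that for Slc11a1 0.35 (adjusted p = 0.141). Between macrophages and mono&prog, the effect on Hmox1 differed by 1.45 (SE 0.38, adjusted p = 0.0625 by edgeR) and was not called. It was called with likely doublets left out (1.07, adjusted p = 0.0102), with cells clustered without the members (1.54, adjusted p = 0.028) and without vehicle replicate 2 (2.43, adjusted p = 3.81e-12). Of all genes 0.167% were called in that contrast. With all mice and cells, Hmox1 is therefore not shown to respond differently in the 2 types, although its fold changes had opposite signs.

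A wider list of 76 genes of iron uptake, carriage, storage, export, heme breakdown, mitochondrial iron and NRF2 targets was read from the same fits; it includes the members, and 75 of its genes were in the files. Of 583 tests of a list gene in the 12 types, 8 gave a call (1.37%), 1 higher and 7 lower, against 1.54% for all genes. Of these calls, 2 are the members Hmox1 and Blvrb described above, and 6 are other genes. In mono&prog, Lrp1, a receptor for the heme carrier hemopexin, fell by 0.93 (adjusted p = 0.00621 by edgeR), from 241 and 196 to 116 and 119 CPM. In B cells, Steap4, a metal reductase, fell by 2.06 (adjusted p = 0.000491 by edgeR), and Gclc, of glutathione synthesis, fell by 0.76 (adjusted p = 0.00425). Gclc also fell in eosinophil/basophil prog, by 1.17 (adjusted p = 0.00468 by edgeR), where Slc7a11, the cystine importer, rose by 2.56 (adjusted p = 0.00136) from 5.31 and 10.9 to 38.2 and 59.0 CPM. HSPC markers in these cells were 2.45 and 1.97 per 1000 UMIs against 4.97 and 3.29, and their own markers 37.7 and 38.4 against 25.7 and 34.1, and the part of this was not tested. In neutrophils, G6pdx, which supplies NADPH, fell by 0.59 (adjusted p = 0.0387 by edgeR). The median log2 fold change of the list was -0.19 in mono&prog (57 genes, all genes -0.0029) and -0.17 in erythroid&prog (54 genes, all genes 0.0053). It was -0.07 in neutrophils (56 genes, all genes -0.0030) and -0.02 in macrophages (40 genes, all genes -0.015). Of the other named types, plasma (0.12), T (0.039) and DC (0.0068) had positive medians, and the rest had medians of -0.13 to -0.014.

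The genes whose level over 16 cell types and clusters was most like that of a member were ranked by Pearson's r of mean log2(CPM + 1), among 10340 genes with at least 20 CPM in 1 type. For Hmox1 they were Rit1 (r = 0.92), Il18bp, Wsb2, Fblim1 and Fabp4. For Slc40a1 they were Mrgpra2a (r = 0.87), Agap1, Gadd45a, Rab6a and Lrg1, and for Tfrc they were Eif4enif1 (r = 0.88), Cep70, Slc43a1, Pank4 and Pla2g12a. The points share 4 libraries, and the correlations are a description.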

How the data were processed

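Cells of 4 libraries (1 per mouse) were profiled with the 10x 3' assay. The authors deposited raw UMI counts per gene and barcode, made with Cell Ranger 6.0.1 (matrix header) on GRCm38 by the methods, and on GRCm 39 by the submitters' processing notes. Of 32285 gene IDs, 32158 were in GENCODE vM21 (release 21). Here, barcodes were kept from 300 genes up and 20% mitochondrial UMIs down, and clustered (scanpy 1.11.5, 2500 variable genes, 30 components, Leiden resolution 1), giving 33 clusters named from 137 markers. Of the members, 6 were among the variable genes. Doublets were not removed. Counts were summed per mouse and type (at least 10 cells in each mouse) and tested in R 4.3.3 by the robust quasi-likelihood test of edgeR 4.0.16, with TMM scaling and the filterByExpr filter, after a test on simulated data. DESeq2 1.42.0 was an alternative. In macrophages, erythroid&prog, mono&prog and neutrophils, fold changes are printed where called or over 0.25 in log2 size. In the other types, those of called members and of members with an unadjusted p under 0.05 are printed. Blvrb and Ftl1 in plasma cells and Tfrc in DC were added after their values were seen. Nothing in the labels says that equal replicate numbers pair mice. The members and lists were chosen with earlier results of these data known.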

Additional observations from a re-analysis of the deposited data

Results flagged for a closer look

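The PM effect on Blvrb differed between neutrophils and mono&prog by 0.66 on the log2 scale (edgeR interaction, adjusted p = 0.0454, 2 mice per group). In that contrast 4.68% of all genes were called. In mono&prog both PM mice (17.3 and 10.9 CPM) lay below both vehicle mice (19.6 and 21.6 CPM), and in neutrophils the groups overlapped (6.40 and 6.46 against 8.53 and 5.91 CPM). The effect was not called in either type alone. The interaction was no longer called with likely doublets left out, with cells clustered without the members or with some single mice left out.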

How the results depend on the processing

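The tests rest on 2 mice per group, and macrophage sums on 68 to 169 cells per mouse. Of 353 recomputed log2 values, 320 kept their direction and side of the threshold, 12 lost a call, 15 gained one and 6 changed sign. Member calls numbered 2 (2.11% of tests, all genes 1.54%), and 1 with DESeq2 (0.971%, all genes 0.822%), 5 without the filter on low counts (4.17%, all genes 2.47%), 1 with likely doublets left out (1.15%, all genes 1.29%), 1 at resolution 1.5 (1.06%, all genes 1.52%), and 1 to 9 with 1 mouse left out (9 without vehicle replicate 2, 9.18%, all genes 2.71%). Calls in the pathway list numbered 8, and 31 without the filter, 20 with the replicate number as a block, and 9 to 35 with 1 mouse left out. Interaction calls numbered 1, and 2 without the filter and 3 with cells clustered without the members. With the main settings 0.167% of all genes were called for macrophages minus mono&prog and 4.68% for neutrophils minus mono&prog. For the interactions, the shares of all genes under the alternatives are not given, so those counts have no background. Over all cells summed, no member was called under any alternative. Hmox1 in mono&prog was -0.57 with likely doublets left out (adjusted p = 0.0555 by edgeR), -0.57 at resolution 1.5 (adjusted p = 0.0625) and -0.69 to -0.47 with 1 mouse left out. Blvrb in B cells was -0.89 with DESeq2 (adjusted p = 0.103) and -0.98 to -0.79 with 1 mouse left out. Cd163 in macrophages was 0.021 once the C1qa and Ace cluster was added. With 1 mouse left out, Slc40a1, Fth1 and Blvrb in macrophages ran from -0.12 to 1.05, -0.16 to 1.24 and -1.01 to 0.55, and Slc11a2 and Tfrc in neutrophils from -0.032 to 1.31 and -0.018 to 0.70. The Blvrb interaction was 0.65 with likely doublets left out (adjusted p = 0.0558 by edgeR), 0.61 with cells clustered without the members (adjusted p = 0.0632) and 0.57 to 0.75 with 1 mouse left out. The causes were not tested.

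With the replicate number as a block, 2 members were called (2.11%, all genes 2.68%), Hmox1 in mono&prog at -0.59 (adjusted p = 0.0093 by edgeR) and Blvrb in B at -0.91 (adjusted p = 0.000213). In that setting 515 genes were called in mono&prog and 789 in B, against 195 and 611 without the block. Deviations of same-numbered mice correlated at -0.16 in neutrophils and -0.13 in erythroid&prog, the lowest values. The highest were 0.27 in the unnamed cluster led by AY036118 and Gm42418 and 0.24 in CAR. Macrophages had 0.024 and mono&prog -0.053. The signs thus differed between types and do not establish a pairing of mice. The crossed pairing was added after seeing the data. It gave 4 member calls (4.21%) and 20 list calls, where 2.18% of tests over all genes were called. Tfrc in erythroid&prog, where 473 of 10490 genes were called, and Blvrb in plasma were gained. Where a mouse was left out, the lone mouse was assumed to vary like the others. Doublet calls at the automatic score threshold were not run, since it marked almost no cells in vehicle replicate 1 and PM replicate 2 (0.0108 and 0%, against 1.51% in vehicle replicate 2 and 5.51% in PM replicate 1), and calls by score rank, clusters fitted singly, the added C1qa cluster and the crossed pairing were chosen after seeing the data. Among macrophages deep enough to be thinned to 1500 UMIs, the share with a UMI was 54.9% for Hmox1, 49.5% for Slc40a1 and 25.5% for Spic. These are unweighted means of the shares in each mouse.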
